A study of Homo sapiens with 8 samples.

Results

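The genes described here encode the extracellular and membrane layer of Wnt signalling together with the first cytoplasmic protein below it: 18 Wnt ligands, PORCN and WLS of ligand secretion, 10 Frizzled receptors, the co-receptors LRP5 and LRP6, the receptors RYK, ROR1 and ROR2, 9 secreted antagonists of the DKK, SFRP and WIF1 families, KREMEN1 and KREMEN2, and DVL1, DVL2 and DVL3. They were chosen by gene symbol, with earlier results of these data known. All 49 were matched to an Ensembl identifier among the 58206 genes of the count table. Expression was measured by RNA sequencing in Alexander1, an established human hepatocellular carcinoma line, in 4 parental libraries (genotype "wt (Axin1 -)") and in 4 libraries of a derivative labelled "Axin1 +". Cells of both groups carry the line's own Axin1, which is missing its GSK3-binding stretch, and according to the labels the Wnt pathway of the parental line is always on. The derivative was made by transferring Addgene plasmid 24928 with a VSVG retrovirus and selecting clones in hygromycin B, and whether its 4 libraries come from 1 clone or several, or from separate cultures, is not given in the sources used here. The p-values therefore measure only the spread between these libraries, which may be technical. No treatment other than this transfer is named for either group, and the labels name no added Wnt protein.

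Wnt proteins are secreted glycoproteins that carry a lipid, attached in the endoplasmic reticulum by the acyltransferase Porcupine (PORCN), and are carried to the cell surface by the transport protein Wntless (WLS). At the surface a Wnt protein binds a Frizzled receptor and the co-receptor LRP5 or LRP6, after which Dishevelled and Axin are recruited to the membrane and the complex that degrades beta-catenin is inhibited. Some Dickkopf proteins bind the LRP co-receptors, Kremen proteins bind some Dickkopf proteins, and the SFRP proteins and WIF1 bind the Wnt proteins themselves. In the liver, Wnt proteins made by endothelial cells of the central vein maintain the metabolic programme of the neighbouring hepatocytes.

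The libraries held between 11232951 and 26400782 counts, and the restored-labelled ones were on average the deeper. Libraries were compared on CPM (counts scaled to the same adjusted library total), and 3 counts corresponded to between 0.108 and 0.267 CPM. AXIN1 mRNA was 52.4 CPM ± 3.49 in the parental and 45.4 CPM ± 5.13 in the restored-labelled libraries (SD, n = 4 each; edgeR adjusted p = 0.267), so it was not higher in the libraries labelled as restored, and the direction of each difference is that of the labels alone. All 16 hepatocyte markers of a list were expressed, with a summed level between 28309 and 32800 CPM in parental and between 24739 and 31316 CPM in restored-labelled libraries. SERPINA1 carried the largest part of it, at 16130 CPM ± 1188 and 10360 CPM ± 1109 (SD, n = 4 each). Of these 16 markers 4 rose (TTR, FGA, FGB and FGG) and 4 fell (APOA2, TF, SERPINA1 and AHSG), beside 10.4% and 8.77% of all 14289 genes tested. The log2 fold changes ran from -3.22 for AHSG to 2.05 for FGB (edgeR adjusted p = 0.000201 and 6.4e-05). ALB was 13.8 CPM in restored-labelled replicate 1 and between 444.9 and 681 CPM in the rest of its group. Parental replicate 1 was likewise the lowest of its group, at 46.7 CPM against 159.3 to 207.7 CPM. Of the endothelial markers PECAM1 alone was expressed (log2 fold change 3.22, edgeR adjusted p = 8.45e-06), while TEK had no count and KDR, CDH5, VWF and STAB2 stayed below the filter. Among fibroblast markers COL1A2, PDGFRA, DCN and ACTA2 had at most 3 counts in any library, and so did PTPRC, CD3E and C1QA among leukocyte markers. COL1A1 and PDGFRB were the 2 of 8 fibroblast markers that were expressed (summed level of the list between 2.71 and 3.22 CPM in parental and between 1.23 and 4.63 CPM in restored-labelled libraries), and PDGFRB fell (log2 fold change -2.87, edgeR adjusted p = 0.00454). Of 7 leukocyte markers LYZ alone was expressed, between 420.6 and 949 CPM in parental and between 672 and 919 CPM in restored-labelled libraries (log2 fold change -0.01, edgeR adjusted p = 0.974). On principal component 1 restored-labelled replicate 1 stood apart from the rest of its group, at 22.2 against 48.7 to 56.8. On component 2 parental replicate 1 stood apart, at 61.5 against -30.3 to -9.60 in the rest of its group. Restored-labelled replicate 2 also stood apart on component 2, at 25.0 against -14.6 to -0.68.

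Of the 49 genes, 22 were expressed, meaning that they passed a filter on low counts (about 10 counts in at least 4 libraries), 9 were present in traces below it, and 18 were not detected, with at most 3 counts in every library. The filter keeps a gene that is high in either group. Expression was uneven across roles. All of the co-receptors, Kremen genes and Dishevelled genes were expressed, as were 7 of 10 Frizzled genes and 2 of 3 other receptors, against 4 of 18 ligands and 1 of 9 secreted antagonists. WNT1, WNT16, DKK1, DKK2 and SFRP2 had no count in any of the 8 libraries, which allows a level of up to 0.0219 CPM over all libraries together (3 counts, counting error only).

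**Figure D1:**
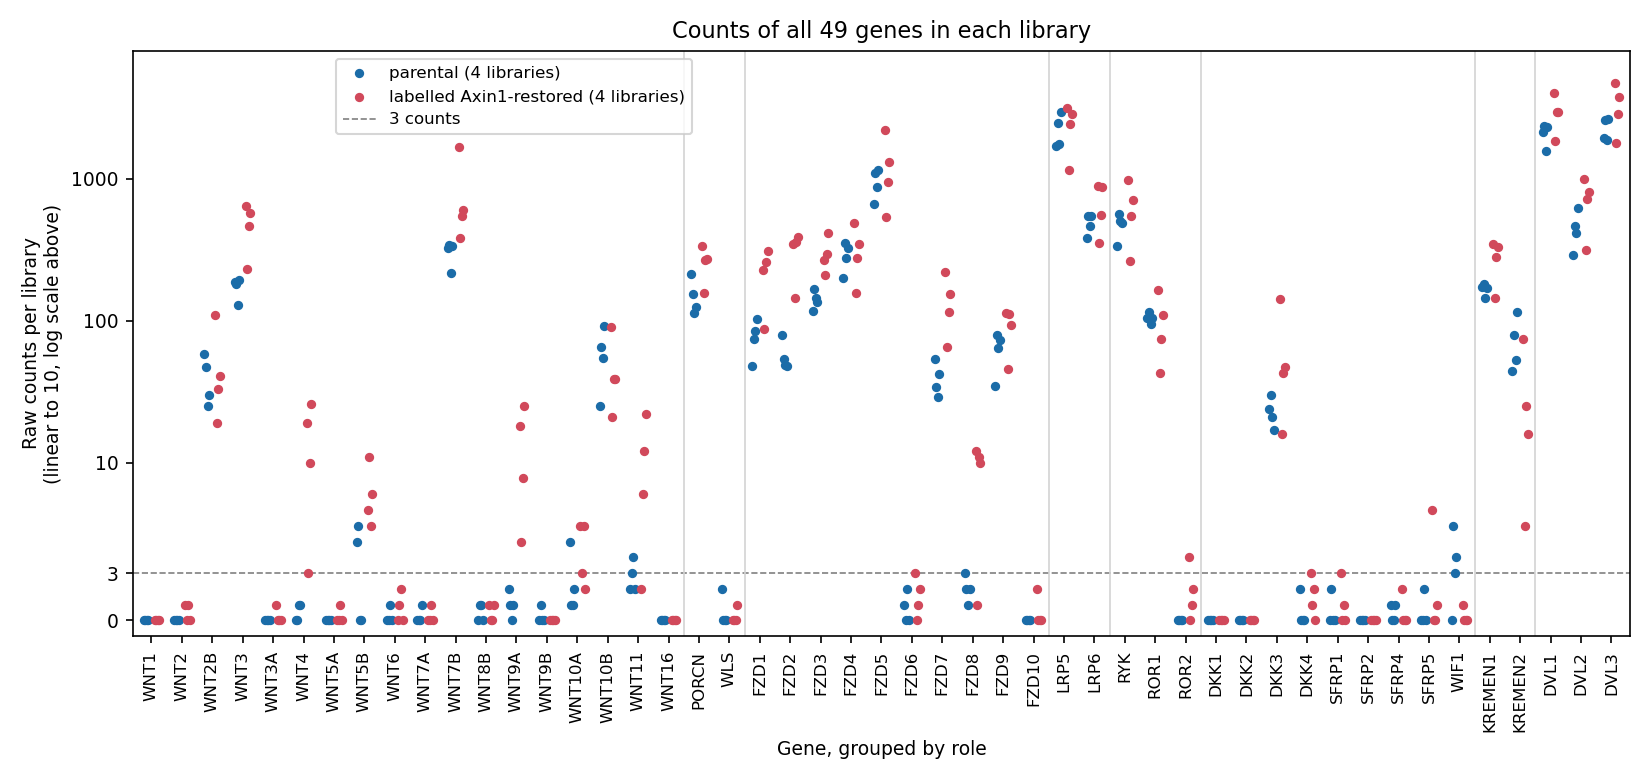
Raw counts of the 49 genes (horizontal axis, grouped by role and separated by grey lines) in each of 4 parental (blue) and 4 restored-labelled (red) libraries. The vertical axis is linear up to 10 counts and logarithmic above, the dashed line marks 3 counts, and the libraries differ in depth. DVL1, DVL3, LRP5 and FZD5 lie highest, and 18 genes stay at or under the dashed line.

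Among the 22 tested genes, 7 differed between the groups at an adjusted p under 0.05, 3 of them higher (FZD2, FZD7, WNT3) and 4 lower (KREMEN2, ROR1, LRP5, FZD4) in the restored-labelled libraries. That is 31.8% of those tested, beside 19.2% of all 14289 genes tested, of which 10.4% were higher and 8.77% lower (edgeR quasi-likelihood test, Benjamini-Hochberg adjustment). The median log2 fold change was -0.21, with 8 values above and 14 below 0, and the median of all genes was 0.003. In 8 of the 22 genes the values of the groups did not overlap, which was the case for 23.9% of all genes, and LRP6 was the 1 of these 8 that did not pass the test. In bulk RNA, fewer cells expressing a gene and less RNA of it per cell cannot be told apart. The number of members called was 4 without parental replicate 2, without restored replicate 3 or without restored replicate 4, beside 10.5%, 10.7% and 9.71% of all genes. It was 12, beside 32.3% of all genes, when parental replicate 1 and restored replicate 1 were both left out. Restored replicate 2, which also stood apart on component 2, was kept in that fit.

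**Figure D2:**
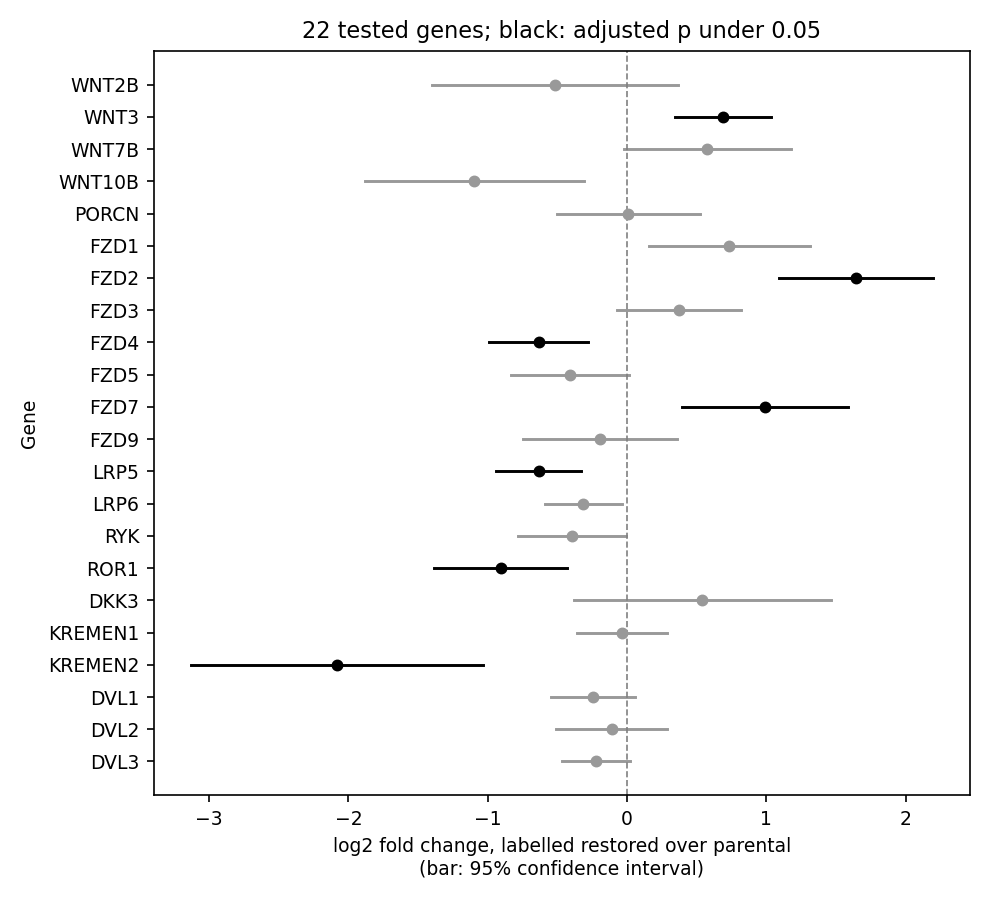
Log2 fold change of the 22 tested genes (vertical axis, in the order of their roles), restored-labelled over parental, with 95% confidence intervals from edgeR. Black marks the 7 genes with an adjusted p under 0.05, from KREMEN2 at -2.08 to FZD2 at 1.64.

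Sequence next to a RefSeq start is shown for WNT3, the ligand that passed the test, and for LRP5, the most abundant receptor gene that did. Each is the 250 bases before the RefSeq start on GRCh38.p14, read 5′ to 3′ on the gene's strand, with CTTTG, letters at the core of the TCF and LEF motif, in capitals where it occurs on either strand. The WNT3 stretch is chr17:46818693-46818942 on the minus strand, which lies inside the longer span that GENCODE gives WNT3, so it precedes the RefSeq start used and not the outermost annotated one, and the LRP5 stretch is chr11:68312341-68312590 on the plus strand.
WNT3: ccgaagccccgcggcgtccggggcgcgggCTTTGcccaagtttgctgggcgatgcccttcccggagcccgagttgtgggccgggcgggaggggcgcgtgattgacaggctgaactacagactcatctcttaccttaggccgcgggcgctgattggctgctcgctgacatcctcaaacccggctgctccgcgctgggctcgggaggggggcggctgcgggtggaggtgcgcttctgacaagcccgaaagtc
LRP5: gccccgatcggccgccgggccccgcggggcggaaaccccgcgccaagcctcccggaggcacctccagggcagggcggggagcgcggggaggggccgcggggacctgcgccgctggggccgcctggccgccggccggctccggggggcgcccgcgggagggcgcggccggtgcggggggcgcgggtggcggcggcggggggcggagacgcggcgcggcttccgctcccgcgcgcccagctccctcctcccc
The LRP5 stretch was 87.2% G and C and held 43 CpG sites, and the WNT3 stretch was 68.8% G and C with 26 CpG sites, where the medians of all such windows were 58.0% and 11. CTTTG occurred once in the WNT3 window and was not among the letters of the LRP5 window. The longer CTTTGA, which contains CTTTG, was searched on both strands in the 15 windows that the table holds for 13 of the 22 expressed genes. It was found in 1 window, of PORCN, and in 11.2% of all 35116 windows of this length, while CTTTG was found in 3 (FZD1, PORCN and WNT3) and in 42.1% of all. A match of letters is not a binding site.

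The ligand transcripts came mainly from WNT7B and WNT3. Levels of different genes are compared as CPM per kilobase of exon. On that scale WNT7B stood at 4.75 ± 0.797 in parental and 7.07 ± 3.32 in restored-labelled libraries, and WNT3 at 3.14 ± 0.514 and 5.06 ± 0.434 (SD, n = 4 each). WNT10B followed at 1.72 ± 0.683 and 0.799 ± 0.292, and WNT2B lay lowest of the expressed ligands at 0.253 ± 0.112 and 0.174 ± 0.0935. WNT7B made up between 43.5% and 51.5% of the summed ligand level per kilobase in parental and between 40.6% and 61.9% in restored-labelled libraries.

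WNT3 (ENSG00000108379, chromosome 17, 46762506 to 46833154 on GRCh38, minus strand), a ligand of the beta-catenin branch, was measured at 16.6, 12.4, 11.6 and 13.9 CPM in parental replicates 1 to 4 and at 23.03, 19.2, 23.1 and 22.5 CPM in restored-labelled replicates 1 to 4. Every restored-labelled library lay above every parental one, and restored-labelled replicate 2 was the lowest of its group. WNT3 rose by a log2 fold change of 0.69 (standard error 0.16, 95% confidence interval 0.35 to 1.03, edgeR adjusted p = 0.0128). The call was lost without parental replicate 2, at an adjusted p of 0.0504.

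WNT7B (chromosome 22), also a ligand of the beta-catenin branch, had 29.2, 23.1, 19.4 and 24.1 CPM in the parental libraries and 60.3, 31.8, 27.1 and 23.6 CPM in the restored-labelled ones. Restored-labelled replicate 1 was the highest of all, and the remaining values overlapped. Its log2 fold change of 0.58 (standard error 0.27) did not pass the test (edgeR adjusted p = 0.165), and it was 0.20 without restored replicate 1. Of 6 markers of bile duct and progenitor cells, 5 were expressed, with a summed level between 27.1 and 58.5 CPM in parental and between 39.6 and 87.7 CPM in restored-labelled libraries. KRT19 was 34.4 CPM in restored-labelled replicate 1 against 1.43 CPM or less in the rest of its group, and SPP1 was 10.8 CPM against 0.345 CPM or less. Parental replicate 1 was also the highest of its group, at 16.9 CPM against 1.29 to 3.99 CPM for KRT19 and 5.16 CPM against 1.22 to 2.22 CPM for SPP1. CFTR rose (log2 fold change 2.54, edgeR adjusted p = 0.00173). It was lowest in replicate 1 of each group, at 0.534 CPM against 1.69 to 2.93 CPM in parental and 8.11 CPM against 10.5 to 14.8 CPM in restored-labelled libraries. The part of these markers in the WNT7B value was not tested.

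WNT10B (chromosome 12) had 2.23, 4.40, 4.90 and 6.58 CPM in the parental and 3.23, 1.73, 1.92 and 1.52 CPM in the restored-labelled libraries. Parental replicate 1 and restored-labelled replicate 1 overlapped, and the other 3 values of each group were apart. Its log2 fold change was -1.10 (standard error 0.36, edgeR adjusted p = 0.0540), just short of passing. It passed at -1.32 without parental replicate 1 (edgeR adjusted p = 0.0091) and at -1.40 without restored replicate 1 (edgeR adjusted p = 0.0218). As a share of the summed ligand level per kilobase, WNT10B took between 7.54% and 23.2% in parental and between 5.03% and 6.36% in restored-labelled libraries.

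WNT2B (chromosome 1) had 5.16, 3.18, 2.23 and 2.15 CPM in the parental and 3.95, 1.57, 1.63 and 1.60 CPM in the restored-labelled libraries, with replicate 1 highest in both groups. The log2 fold change of -0.51 (standard error 0.40, edgeR adjusted p = 0.399) did not pass. Its exons share 2661 bases with those of ST7L on the opposite strand, a gene that fell (log2 fold change -0.70, edgeR adjusted p = 0.0363), and without a stated use of strand the reads of the 2 genes cannot be told apart.

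**Figure D3:**
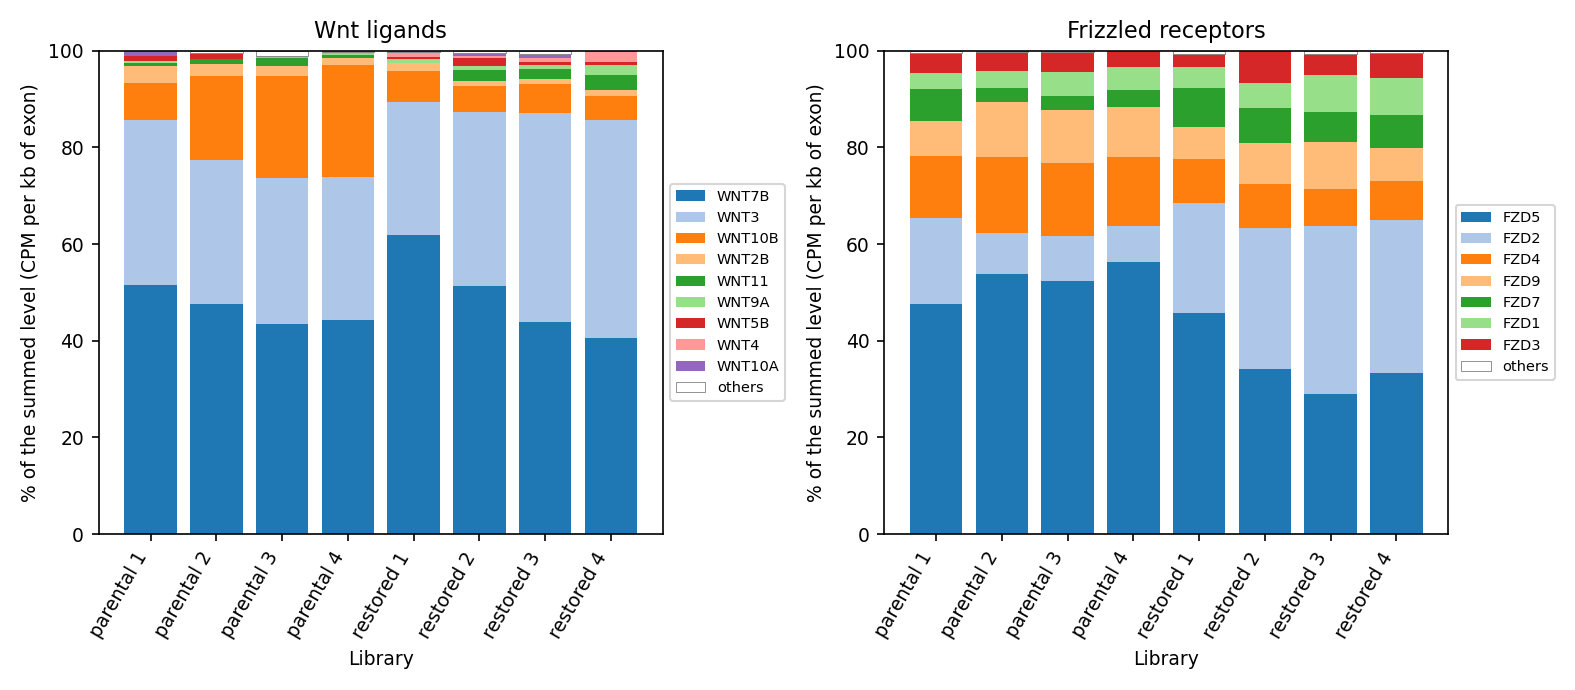
Share of each gene in the summed level (CPM per kilobase of exon, in percent) of the 18 ligands on the left and the 10 Frizzled genes on the right, by library. WNT7B and WNT3 fill most of each ligand bar, and the share of FZD2 lies between 7.40% and 17.8% in parental and between 22.8% and 34.8% in restored-labelled libraries.

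A further 5 ligands were present in traces. WNT4 had 0, 0, 1 and 1 counts in the parental libraries and 19, 3, 10 and 26 counts in the restored-labelled ones. WNT9A had 2, 1, 0 and 1 counts in the parental and 18, 5, 9 and 25 counts in the restored-labelled libraries. In both genes each restored-labelled library lay above each parental one, also after scaling for depth. With the counts of each group added up and scaled for depth, WNT4 was 17.3 times as high in the restored-labelled libraries (counting interval 4.57 to 146) and WNT9A 8.49 times (3.14 to 32.2). Such intervals measure counting error only and leave out the spread between libraries. Neither gene passed the expression filter. In a fit without that filter, in which 10.6% of 30224 genes were called, both passed (edgeR adjusted p = 0.0011 for WNT4 and 0.0049 for WNT9A). That fit also moved genes with more counts. The edgeR adjusted p of WNT7B went from 0.165 to 0.0443, and that of FZD3 from 0.221 to 0.293. The calls of WNT4 and WNT9A thus rest on that setting alone.

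WNT11, which acts in the beta-catenin-independent branch, had 2, 3, 4 and 2 counts in the parental and 2, 8, 12 and 22 counts in the restored-labelled libraries, and the groups overlapped. The ratio of added counts was 2.38 (counting interval 1.21 to 5.12), and the fit without a filter gave an edgeR adjusted p of 0.264. WNT5B and WNT10A had at most 11 and 6 counts in any library, with ratios of 1.73 (0.852 to 3.81) and 1.13 (0.475 to 2.87). The 9 ligands that were not detected include WNT2 and WNT9B, the ligands made by liver endothelial cells, with 2 counts and 1 count over all libraries, and WNT3A and WNT5A with 1 count each.

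Of the genes of ligand secretion, PORCN was expressed and WLS was not detected. PORCN had 18.9, 10.4, 10.2 and 8.95 CPM in the parental and 12.0, 12.9, 13.2 and 10.7 CPM in the restored-labelled libraries. Parental replicate 1 was the highest of all, and the groups overlapped. For PORCN the log2 fold change was 0.01 (standard error 0.23, 95% confidence interval -0.50 to 0.52, edgeR adjusted p = 0.981). WLS had 2 counts in parental replicate 1, 1 count in restored-labelled replicate 4 and no count in the other libraries. WLS was thus measured at 0.0445 CPM in parental and 0.0098 CPM in restored-labelled libraries, while WNT3 and WNT7B were between 11.6 and 60.3 CPM in the same libraries.

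Of the Frizzled genes, FZD5 was the most abundant per kilobase in 7 of 8 libraries, and FZD2 had the log2 fold change of largest size. FZD5 stood at 11.0 ± 1.50 CPM per kilobase in parental and 8.26 ± 2.46 in restored-labelled libraries (SD, n = 4 each). FZD2 stood at 2.19 ± 0.783 and 6.79 ± 1.24, by the mean below FZD4 in the parental libraries and next to FZD5 in the restored-labelled ones. In parental replicate 1 FZD2 lay above FZD4, at 3.33 against 2.41 CPM per kilobase. The summed Frizzled level per kilobase was 20.9 ± 1.64 in parental and 23.1 ± 2.81 in restored-labelled libraries, and the ranges overlapped. FZD5 took 52.5% ± 3.66 of that sum in parental and 35.5% ± 7.16 in restored-labelled libraries, and FZD2 took 10.7% ± 4.79 and 29.6% ± 5.06. In restored-labelled replicate 3 FZD2 lay above FZD5, at 34.8% against 28.9% of the sum. Without restored replicate 1 the means of the group were 7.07 ± 1.36 CPM per kilobase for FZD2 and 7.05 ± 0.517 for FZD5 (SD, n = 3), which did not differ beyond their spread.

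FZD2 (ENSG00000180340, chromosome 17, 44557459 to 44559570, plus strand), a receptor used in both branches of the pathway, had 7.03, 3.66, 4.37 and 3.43 CPM in the parental and 12.6, 12.0, 17.7 and 15.2 CPM in the restored-labelled libraries. The groups did not overlap, and parental replicate 1 was the highest parental library. FZD2 rose by a log2 fold change of 1.64 (standard error 0.25, 95% confidence interval 1.09 to 2.20, edgeR adjusted p = 0.0016). It passed in each of the 18 alternative analyses, with values between 1.52 and 1.98.

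FZD7 (ENSG00000155760, chromosome 2, 202034587 to 202038445, plus strand), a close relative of FZD1 and FZD2, had 4.81, 2.30, 2.58 and 3.01 CPM in the parental and 7.93, 5.37, 5.72 and 6.05 CPM in the restored-labelled libraries. The groups did not overlap, and replicate 1 was the highest of each. FZD7 rose by a log2 fold change of 0.99 (standard error 0.27, edgeR adjusted p = 0.0271). The call was lost without parental replicate 2, 3 or 4 and without restored replicate 1, 3 or 4, with edgeR adjusted p between 0.0523 and 0.0865.

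FZD1, the remaining gene of this subfamily, had between 4.27 and 7.57 CPM in parental and between 7.18 and 12.8 CPM in restored-labelled libraries, which overlapped. FZD1 had a log2 fold change of 0.74 (standard error 0.26, edgeR adjusted p = 0.0728).

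FZD4 (ENSG00000174804, chromosome 11, 86945679 to 86955391, minus strand), known as the receptor for norrin as well as for Wnt proteins, had 17.8, 24.03, 24.7 and 23.4 CPM in the parental and 17.5, 13.0, 13.7 and 13.7 CPM in the restored-labelled libraries. Replicate 1 of each group nearly met at 17.8 and 17.5 CPM. FZD4 fell, with a log2 fold change of -0.63 (standard error 0.16, edgeR adjusted p = 0.0209). The call was lost in 7 of 18 alternative analyses: without parental replicate 2 or 3 or restored replicate 2, 3 or 4 (edgeR adjusted p between 0.0537 and 0.0677), with total counts only (0.0620) and with the replicate number as a block (0.0646). FZD4 exons share 1399 bases with PRSS23 on the opposite strand, which had 36.4 CPM ± 4.80 in parental and 23.4 CPM ± 9.65 in restored-labelled libraries (log2 fold change -0.63, edgeR adjusted p = 0.103), and the part of PRSS23 reads in the FZD4 value was not tested.

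FZD5 (chromosome 2) had 59.6, 74.3, 78.2 and 82.9 CPM in the parental and 79.8, 44.2, 46.7 and 51.02 CPM in the restored-labelled libraries. Restored-labelled replicate 1 lay among the parental values, and the other 3 lay below all of them. Its log2 fold change of -0.41 (standard error 0.19, edgeR adjusted p = 0.162) did not pass, and without restored replicate 1 it was -0.64 and passed (edgeR adjusted p = 0.0113). FZD3 had between 9.66 and 12.8 CPM in parental and between 9.61 and 17.3 CPM in restored-labelled libraries (log2 fold change 0.37, edgeR adjusted p = 0.221), and passed at 0.53 without restored replicate 1 (edgeR adjusted p = 0.0459). FZD9 had between 3.12 and 5.70 CPM in parental and between 3.67 and 5.47 CPM in restored-labelled libraries (log2 fold change -0.19, edgeR adjusted p = 0.626). FZD8 was present in traces, with between 1 and 12 counts in every library, and FZD6 and FZD10 were not detected, with at most 3 and 2 counts.

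The co-receptor genes were both measured lower in the restored-labelled libraries, and LRP5 passed the test. LRP5 (ENSG00000162337, chromosome 11, 68312609 to 68449275, plus strand), whose stretch is printed above, had 152, 169.0, 156 and 211 CPM in the parental and 114, 95.3, 121 and 112 CPM in the restored-labelled libraries. The groups did not overlap, with parental replicate 4 the highest and restored-labelled replicate 2 the lowest of all. LRP5 fell by a log2 fold change of -0.64 (standard error 0.14, 95% confidence interval -0.94 to -0.33, edgeR adjusted p = 0.0104). It passed in each of the 18 alternative analyses, with values between -0.70 and -0.52.

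LRP6 (chromosome 12) had 34.3, 36.9, 41.7 and 39.0 CPM in the parental and 31.8, 29.2, 27.3 and 34.0 CPM in the restored-labelled libraries. The groups did not overlap, although parental replicate 1 and restored-labelled replicate 4 were close. The log2 fold change of -0.31 (standard error 0.13, 95% confidence interval -0.59 to -0.03) did not pass (edgeR adjusted p = 0.111, and between 0.0547 and 0.355 in the alternative analyses). Per kilobase, LRP5 was the larger of the pair, with 88.2% ± 1.56 of their sum in parental and 85.8% ± 1.65 in restored-labelled libraries. Their summed level per kilobase was 31.6 ± 4.46 in parental and 20.9 ± 1.77 in restored-labelled libraries (SD, n = 4 each).

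Among the other receptors, ROR1 (ENSG00000185483, chromosome 1, 63774022 to 64181498, plus strand), a receptor tyrosine kinase-like protein that binds WNT5A, had 9.26, 7.79, 8.46 and 7.44 CPM in the parental and 5.92, 3.55, 3.70 and 4.25 CPM in the restored-labelled libraries. The groups did not overlap, and replicate 1 was the highest of each. ROR1 fell by a log2 fold change of -0.91 (standard error 0.22, edgeR adjusted p = 0.0159). The call was lost without restored replicate 3 (edgeR adjusted p = 0.0555) and without restored replicate 4 (0.0508). Its ligand gene WNT5A had 1 count over all libraries, and its relative ROR2 had no count in the parental and 4, 0, 1 and 2 counts in the restored-labelled libraries.

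RYK (chromosome 3), a Wnt receptor with an inactive kinase domain, had 29.8, 38.1, 44.7 and 34.9 CPM in the parental and 35.1, 21.7, 27.1 and 27.9 CPM in the restored-labelled libraries. Restored-labelled replicate 1 lay within the parental range. RYK had a log2 fold change of -0.40 (standard error 0.18, edgeR adjusted p = 0.140), and it was -0.61 with an edgeR adjusted p of 0.0083 when both replicates 1 were left out.

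Of the 9 secreted antagonists only DKK3, a divergent member of the Dickkopf family, was expressed. It had 2.14, 2.03, 1.87 and 1.22 CPM in the parental and 5.09, 1.32, 2.12 and 1.84 CPM in the restored-labelled libraries. Restored-labelled replicate 1 stood alone, and the other values overlapped. The log2 fold change of 0.54 (standard error 0.42, edgeR adjusted p = 0.394) became -0.03 without that library. WIF1 had 0, 6, 3 and 4 counts in the parental and 1, 0, 0 and 0 counts in the restored-labelled libraries, a ratio of added counts of 0.0459 (counting interval 0.0011 to 0.305). It did not pass the expression filter. Its call in the fit without a filter (edgeR adjusted p = 0.0270) rests on that setting alone. SFRP5 had 7 counts in restored-labelled replicate 1 and at most 2 in any other library. DKK1, DKK2 and SFRP2 had no count, and DKK4, SFRP1 and SFRP4 had at most 3 counts in any library.

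The Kremen genes encode receptors for some Dickkopf proteins. KREMEN2 (ENSG00000131650, chromosome 16, 2963944 to 2968383, plus strand) had 3.92, 5.35, 4.72 and 8.23 CPM in the parental and 2.69, 0.495, 1.23 and 0.625 CPM in the restored-labelled libraries. The groups did not overlap, and restored-labelled replicate 1 lay closest to the parental values. KREMEN2 fell by a log2 fold change of -2.08 (standard error 0.48, 95% confidence interval -3.13 to -1.04, edgeR adjusted p = 0.0133), the largest change of the 22 genes in either direction. It passed in each of the 18 alternative analyses, with a log2 fold change of -2.79 without restored replicate 1. The counts were 44, 79, 53 and 115 in the parental and 75, 6, 25 and 16 in the restored-labelled libraries. With so few restored-labelled counts the size of the KREMEN2 fall is uncertain. KREMEN2 exons share 360 bases with PKMYT1 on the opposite strand, whose log2 fold change was -0.05 (edgeR adjusted p = 0.923).

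KREMEN1 (chromosome 22) had 15.3, 12.2, 12.9 and 12.2 CPM in the parental and 12.5, 12.0, 13.8 and 13.0 CPM in the restored-labelled libraries, which overlapped. Its log2 fold change was -0.04 (standard error 0.15, 95% confidence interval -0.36 to 0.29, edgeR adjusted p = 0.882), and the sign turned with total counts only (0.05) and without parental replicate 1 (0.04). Per kilobase, KREMEN2 stood at 2.12 ± 0.718 and KREMEN1 at 1.65 ± 0.184 in the parental libraries. In the restored-labelled libraries they stood at 0.482 ± 0.385 and 1.60 ± 0.0974 (SD, n = 4 each).

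**Figure D4:**
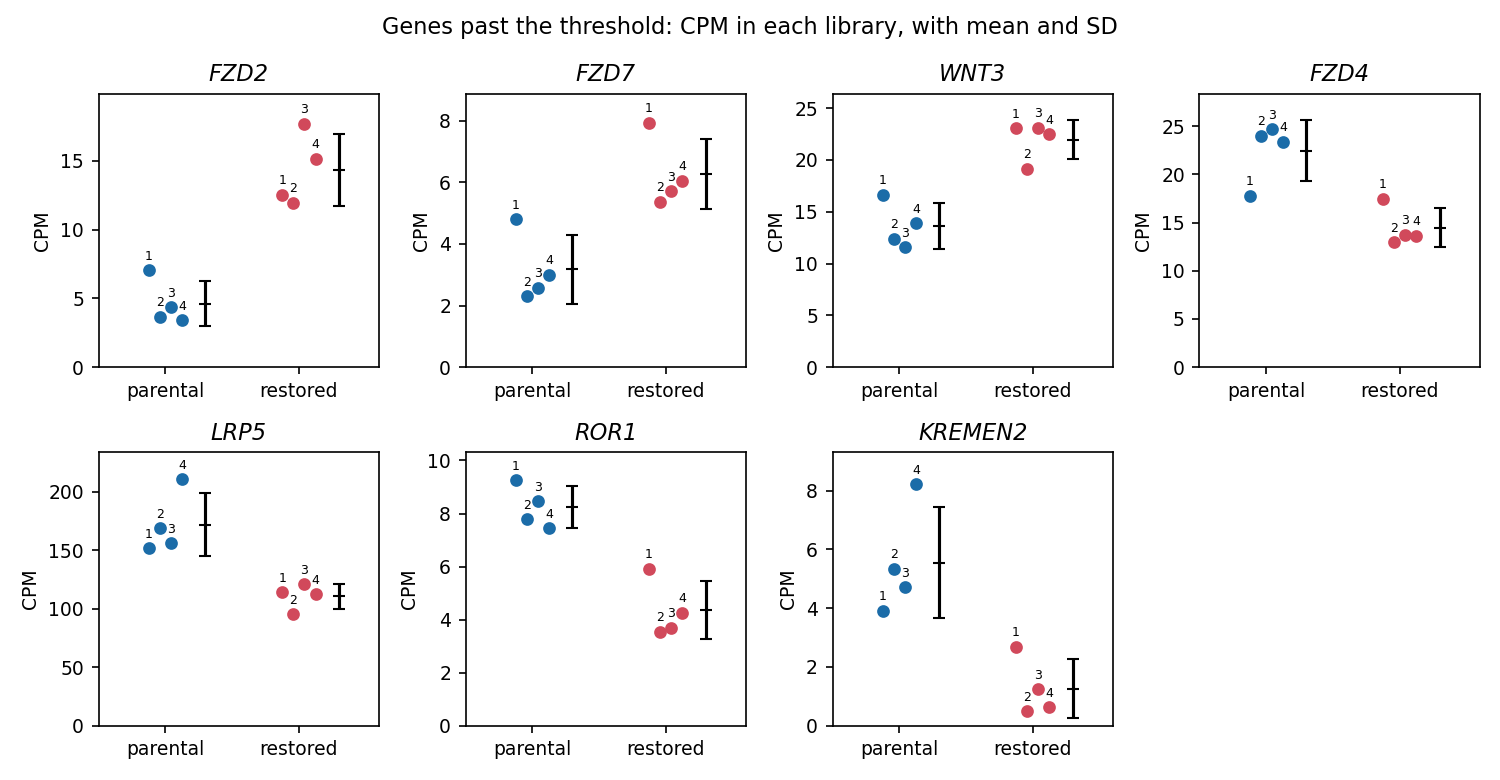
CPM of the 7 genes past the threshold in each library, with the replicate number beside each point and the group mean and SD (n = 4) as bars. FZD2, FZD7 and WNT3 are higher in the restored-labelled libraries and FZD4, LRP5, ROR1 and KREMEN2 lower, and the groups of FZD4 nearly meet at replicate 1.

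The products of the Dishevelled genes pass the signal from Frizzled to the cytoplasm. By the mean of both groups DVL1 and DVL3 ranked above all other members per kilobase, and DVL2 ranked below LRP5 and FZD5. In the parental libraries alone LRP5 stood at 27.9 ± 4.38 CPM per kilobase, level with DVL3. DVL1 stood at 43.1 ± 5.61 CPM per kilobase in parental and 36.5 ± 4.37 in restored-labelled libraries, and DVL3 at 27.8 ± 1.54 and 23.9 ± 2.01 (SD, n = 4 each). DVL1 had 191, 161, 139 and 167 CPM in the parental and 144, 152, 147.0 and 115 CPM in the restored-labelled libraries, and the groups overlapped (log2 fold change -0.24, standard error 0.14, edgeR adjusted p = 0.242). DVL3 had 174.0, 177, 166 and 190 CPM in the parental and 171, 148, 142 and 147 CPM in the restored-labelled libraries, where replicate 1 alone reached the parental range. DVL3 had a log2 fold change of -0.22 (standard error 0.11, edgeR adjusted p = 0.192). DVL2 lay between 25.7 and 44.8 CPM in parental and between 26.2 and 35.8 CPM in restored-labelled libraries (log2 fold change -0.11, edgeR adjusted p = 0.711).

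Ordered by level per kilobase over both groups, the 22 expressed genes began with DVL1, DVL3, LRP5, FZD5, DVL2 and WNT7B and ended with FZD3, DKK3 and WNT2B. The order was much the same in both groups at the top, and the genes that moved farthest in it were FZD2, from place 12 in the parental to place 6 in the restored-labelled libraries, and KREMEN2, from place 13 to place 21. Neighbours such as PORCN and RYK, at 4.02 ± 1.51 and 4.58 ± 0.776 CPM per kilobase in the parental libraries, did not differ beyond their spread. With the longest annotated transcript as the length in place of all exons, all of the 10 highest genes remained among the 10 highest.

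Other genes of the pathway were taken from 3 lists. Of 26 extracellular modulators, 12 were tested and 5 differed, 2 higher and 3 lower (median log2 fold change 0.11). GPC3, a glypican that binds Wnt proteins at the cell surface, fell, from a mean of 513 CPM ± 69.1 to a mean of 118 CPM ± 17.4 (SD, n = 4 each; log2 fold change -2.12, edgeR adjusted p = 1.53e-05). LGR5, a receptor for R-spondins, fell with a log2 fold change of -5.49 (edgeR adjusted p = 0.00029), which was -6.54 without restored replicate 1. It had 54, 206, 174 and 258 counts in the parental and 18, 0, 2 and 6 counts in the restored-labelled libraries. With so few restored-labelled counts the size of the fall is uncertain. LRP4, a relative of LRP5 and LRP6, fell with a log2 fold change of -0.70 (edgeR adjusted p = 0.0160), a call lost without parental replicate 2 or restored replicate 3 or 4 (edgeR adjusted p between 0.0517 and 0.0564). The genes of the 4 R-spondins, RSPO1 to RSPO4, did not pass the filter.

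Of 40 genes of the destruction complex and its nuclear partners, 36 were tested and 10 differed, 7 higher and 3 lower (median -0.06). APC, a scaffold of that complex, rose from 10.5 CPM ± 2.29 to 21.8 CPM ± 4.18 (log2 fold change 1.06, edgeR adjusted p = 0.0055). FBXW11, a ubiquitin ligase subunit that recognises phosphorylated beta-catenin, rose by 0.80 (edgeR adjusted p = 0.0116). APC and FBXW11 lie on chromosome 5, as do CSNK1A1 and CSNK1G3 among the higher genes. The other higher genes, PYGO1, GSK3A and TNKS, lie on other chromosomes. On chromosome 5, TCF7, CXXC5 and NKD2 did not pass (log2 fold change 0.244, 0.336 and -0.315, edgeR adjusted p = 0.387, 0.076 and 0.325). The part of chromosomal position in these values was not tested. CTNNBIP1, an inhibitor of the binding of beta-catenin to TCF factors, fell, from a mean of 23.01 CPM ± 1.97 to a mean of 12.9 CPM ± 1.41 (SD, n = 4 each; log2 fold change -0.83, edgeR adjusted p = 0.0033).

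Of 30 genes of the beta-catenin-independent branch, 24 were tested and 5 differed, 2 higher and 3 lower (median -0.10). PLCB1, a phospholipase C, fell, from a mean of 51.4 CPM ± 18.6 to a mean of 5.99 CPM ± 3.05 (SD, n = 4 each; log2 fold change -3.08, edgeR adjusted p = 0.00037). MAPK9, a JNK kinase, and ANKRD6, a homologue of the planar polarity gene diego, rose by 0.68 and 0.91 on the log2 scale (edgeR adjusted p = 0.0194 and 0.0314). Both calls were lost without parental replicate 2 or restored replicate 3 or 4, with edgeR adjusted p between 0.0608 and 0.0667 for MAPK9 and between 0.0700 and 0.103 for ANKRD6. ANKRD6 exons also overlap those of LYRM2 on the opposite strand. MAPK9 lies on chromosome 5, like APC and FBXW11, and the part of chromosomal position in its value was not tested. The shares called in the 3 lists were 41.7%, 27.8% and 20.8%, beside the 19.2% of all genes. The lists are short and were chosen with earlier results of these data known. The shares are therefore a description, and a difference from all genes was not tested.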

How the data were processed

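The authors deposited raw counts per gene for 8 libraries, without normalization, as whole numbers and differing totals show; 0 columns belonged to no sample. The submitters' processing notes name bcl2fastq, fastp 0.23.1, STAR 2.7.4 and GRCh38; annotation, counting program and use of strand are not given in the sources used here. Positions, exon lengths and overlaps come from GENCODE release 29 on GRCh38, in which 57943 of 58206 identifiers were found.

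In R 4.3.3, edgeR 4.0.16 kept genes by filterByExpr (minimum count 10, minimum total 15), scaled libraries by TMM and compared the groups by the quasi-likelihood test without covariates, two-sided, with Benjamini-Hochberg adjustment over 14289 genes and a threshold of 0.05. The standard error of a log2 fold change was derived from its F statistic. Levels per kilobase divide CPM by the length of all exons together. Ratios of added counts carry exact 95% counting intervals, which leave out the spread between libraries.

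The members and lists were chosen with earlier results of these data known. Values per library are given for genes past the threshold, the 2 most abundant genes of each role and every expressed ligand and antagonist, and from each other list the 3 genes with the smallest p are named; trace genes, FZD1, FZD3, FZD9, DVL2, the single marker genes and the overlapping genes were added after their values were seen. Alternatives were other scalings, filters and tests (DESeq2 1.42.0, voom in limma 3.58.1), a block for the replicate number, the stricter threshold of 0.01 and the omission of each library in turn; thinning to 11232951 counts, leaving out both replicates 1 and the Frizzled levels without restored replicate 1 were chosen after seeing the data.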

Additional observations from a re-analysis of the deposited data

Results flagged for a closer look

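Of 64 groups of 4 libraries examined for a library far from the other 3, 6 held such a value, where chance alone gives about 5% of groups. WNT2B had 3.95 CPM in restored-labelled replicate 1, against 1.63 CPM or less in the other 3. WNT3 had 19.2 CPM in restored-labelled replicate 2, below the other 3, which lay between 22.5 and 23.1 CPM. PORCN had 18.9 CPM in parental replicate 1, against 10.4 CPM or less in the other 3. PLCB1 had 10.5 CPM in restored-labelled replicate 1, against 5.12 CPM or less in the other 3. AXIN1 was lowest, at 37.7 CPM, and APC highest, at 28.1 CPM, in restored-labelled replicate 4.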

How the results depend on the processing

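Without an expression filter 13 of the 44 members tested were called, 7 of them higher, beside 10.6% of all 30224 genes. With both replicates 1 left out 12 were called, 5 higher and 7 lower, among 32.3% of all genes. At an adjusted p under 0.01 only FZD2 remained, so that 1 was called, 1 higher and 0 lower, beside 6.75% of all genes. With 1 library left out the members called ranged from 4 to 9, those higher from 1 to 3 and those lower from 2 to 6. The share of all genes called in those fits ranged from 9.71% to 24.1%. FZD2, LRP5 and KREMEN2 passed in all 18 alternatives run on the tested genes at the threshold of 0.05. The signs of values near 0 turned. PORCN was -0.001 with upper-quartile factors and -0.055 with thinned counts, and from -0.11 to 0.30 with 1 library left out. KREMEN1 was 0.051 with total counts only, 0.058 with both replicates 1 left out and from -0.074 to 0.041 with 1 library left out. DVL2 ranged from -0.23 to 0.037 and DKK3 from -0.025 to 0.74 with 1 library left out. The cause of these changes was not tested, except that fewer libraries enter some fits. Same-numbered libraries had correlations of their deviations from the group means of -0.06, 0.01, -0.03 and 0.23. Those of differently numbered libraries ranged from -0.43 to 0.45. The labels state no pairing, and with 4 libraries per group such values cannot exclude one. With the replicate number as a block 7 members were called, with FZD1 gained (log2 fold change 0.73, edgeR adjusted p = 0.0373) and FZD4 lost, and 2033 genes in all against 2738. Over all single genes and alternatives, 524 values kept direction and side of the threshold, 25 lost the call, 15 gained it and 12 changed sign. The members expressed were 22 also by a mean of 1 CPM and after thinning. Depth limits the trace genes, whose values rest on 26 counts or fewer per library.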
